A study of Homo sapiens with 15 samples.

Results

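The comparison described here set 3 libraries of co-cultures on LN/FN-silk, a membrane made with recombinant spider silk (called silk below), against 3 libraries of co-cultures on LN/PC membranes, that is 6 of the 15 libraries sequenced, chosen by their titles. Each co-culture held RPTEC/TERT1 cells, immortalized epithelium of the human renal proximal tubule, and fHDF/TERT166 cells, immortalized fibroblasts of human dermis. Both groups received the same medium, that of the epithelial cells, the same seeding densities of 140000 epithelial cells and 14000 fibroblasts per cm2, fibroblasts first, and 14 days of culture. The other 9 libraries, 3 each of epithelial monocultures on silk, epithelial monocultures on LN/PC and fibroblasts alone, served to sort genes by cell type. The protocol speaks of the fibroblast samples as basolateral cells from the well bottom, whereas their titles say monoculture, and every class and share below takes them as monocultures. Each cell type is a single line, and each sample pooled 3 to 8 membranes. Silk was harvested by scraping and LN/PC by excising the membrane with a blade, and effects of the material and of this step cannot be told apart. Whether replicates came from separate cultures is not stated, and p-values then measure only the spread between the samples sequenced, part of which may be technical.

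Proximal tubule cells take up solutes from the filtrate through a brush border and carriers driven by the sodium pump, and they are sealed to each other by tight junctions. Fibroblasts lay down collagens and other matrix and signal to epithelium through growth factors. In a lysate of both cell types, a transcript level is the sum of what each type contributes, so a gene can differ between 2 co-cultures through either cell type or through their proportion. Fewer fibroblasts and less RNA per fibroblast cannot be told apart in such bulk samples.

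The deposited values, turned back to normalized counts, summed to 10.1 to 10.3 in silk and 10.4 to 11.7 in LN/PC co-cultures, in units of 1e6, and 1 read was worth 0.75 to 1.25 normalized counts over all libraries. Values below are normalized counts per gene, not corrected for gene length. Differences are silk minus LN/PC on the scale of log2(value + 1), positive when higher on silk, with their standard error (SE). A gene is called when limma's adjusted p, Benjamini-Hochberg over all 14433 tested genes, is under 0.05.

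Labels and markers were checked first. The 13 dermal fibroblast markers summed to 139 to 788 in silk co-cultures, 95159 to 172140 in LN/PC co-cultures and 498320 to 568250 in fibroblasts alone, against 57.2 to 159 in epithelial monocultures. The silk libraries labelled as co-cultures thus lay far nearer to monocultures than to LN/PC co-cultures in fibroblast RNA. Markers of kidney epithelium in general summed to 14723 to 15525 on silk and 13231 to 16995 on LN/PC, overlapping, against 32.6 to 40.0 in fibroblasts. Of the proximal tubule markers, 15 of 18 were in the table and all 15 had a mean of at least 10 in both co-culture groups. They summed to 24079 to 24811 on silk, 26992 to 32547 on LN/PC and 25709 to 29594 in fibroblasts, where 6 of them had a mean of at least 10, so this sum does not set epithelium apart. LRP2 and HNF4A were not analysed here. Of 4 endothelial and 4 leukocyte markers, 1 each was in the table. The endothelial PECAM1 was at 2.97, 8.33 and 11.9 on silk and 2.24, 43.4 and 17.3 on LN/PC. CD68, a lysosomal protein used as a marker of macrophages, was called higher on silk, at 757, 784 and 885 against 351, 501 and 492 (adjusted p = 0.0217), with 523 to 581 in fibroblasts and 85.8 to 255 in epithelial monocultures.

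Fibroblast RNA was nearly missing from the silk co-cultures. From 112 genes that marked fibroblasts in the monocultures, the fibroblast share of a library's RNA was estimated at 13.9%, 9.81% and 15.2% in LN/PC co-cultures (mean 12.97% ± 2.80, SD, n = 3) and at 0.0239%, 0% and 0.113% in silk co-cultures (0.0457% ± 0.0597, SD, n = 3), a difference in every pair of libraries (exact permutation test, two-sided, p = 0.1, the smallest that 3 against 3 allows). Without silk replicate 3, which had the highest share, the silk mean was 0.0119%. Taking the summed level of the markers in place of the median over them gave 20.9% ± 5.81 and 0.118% ± 0.0567. Fibroblasts made up 9.09% of the cells seeded on both membranes.

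**Figure D1:**
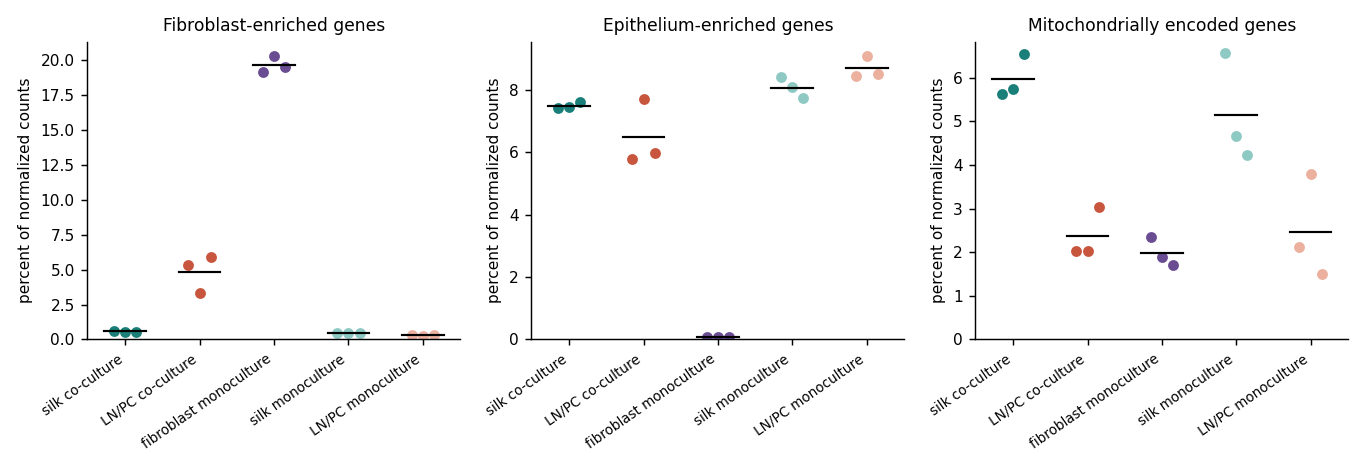
Percent of normalized counts taken by fibroblast-enriched, epithelium-enriched and mitochondrially encoded genes in each of the 15 libraries (points, 1 per library; black lines, group means). Fibroblast-enriched genes averaged 4.86% in LN/PC and 0.578% in silk co-cultures, and mitochondrially encoded genes 2.37% and 5.97%.

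Genes were then sorted by their levels in the 9 monoculture libraries. Of these, the 6 epithelial ones also entered the fit and so the filter and spread behind the co-culture test. A gene was fibroblast-enriched when its mean in fibroblasts was 10 or more times as high as in each group of epithelial monocultures (473 genes), epithelium-enriched when the reverse held (517 genes) and shared otherwise (14800 genes), with 10 added to each mean. Of 14433 tested genes, 5214 were called between co-cultures (36.1%), 2675 higher on silk (18.5%) and 2539 lower on silk (17.6%). Between monocultures on the same membranes 1685 were called (11.7%, with 5.88% higher and 5.79% lower on silk), and for 1116 (7.73% of tested genes, 3.15% with a positive and 4.59% with a negative value) the membrane difference itself differed between co-culture and monoculture in the interaction term of the fit. The even split of directions rests on the scale. When libraries were rescaled on the epithelium-enriched genes, the median of all genes moved from 0.03 to -0.42, and 1003 genes were called higher and 5764 lower, so that 14.8% of calls were higher on silk in place of 51.3%. Medians of gene groups are therefore read below against the median of all genes.

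Fibroblast-enriched genes went one way. Over all 473, the 3 silk libraries lay below the 3 LN/PC libraries for 428, above them for 3, and overlapped for 42, where 25.5% of all genes in the table lay below and 25.7% above. The test was possible for 412, of which 239 passed the filter on low values only through the LN/PC co-cultures, so the 373 lower calls among them describe genes that in part had to differ. The epithelium-enriched genes leaned the other way and far less uniformly. Of 517, all tested, 224 were called higher (43.3%) and 55 lower on silk, with a median difference of 0.44. Rescaled on these same genes, which centres them by construction, the counts were 128 and 123. Shared genes split into 2450 higher and 2111 lower of 13504, with a median of 0.04.

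**Figure D2:**
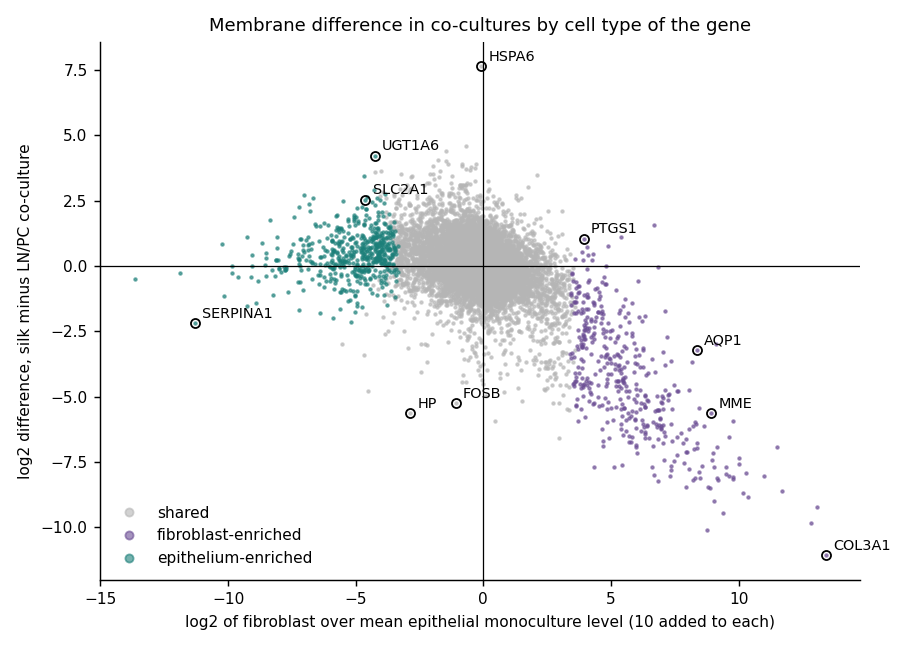
Each of the 14433 tested genes by its fibroblast over epithelial monoculture level (x, log2 ratio) and its difference between silk and LN/PC co-cultures (y, log2); colours give the cell type class. Fibroblast-enriched genes, to the right, have a median of -4.40, epithelium-enriched genes, to the left, a median of 0.44.

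Among the fibroblast-enriched genes with the largest differences were matrix genes that epithelial monocultures barely contained. COL3A1, a fibrillar collagen chain of connective tissue, was at 44.3, 0 and 39.5 in silk and 23909, 19236 and 39837 in LN/PC co-cultures, and at 103050 to 118790 in fibroblasts alone. POSTN (periostin), a matricellular protein of remodelling tissue, was at 0 in all 3 silk libraries and at 1586, 659 and 1302 on LN/PC, at least 407-fold higher with a floor of 3 reads per silk library. THBS2, the matrix glycoprotein thrombospondin 2, was at 2.17, 0 and 6.63 on silk and 1913, 1038 and 1620 on LN/PC, where its mean was 519-fold higher (adjusted p = 4.31e-08). No silk library of these genes reached any LN/PC library. COL6A3, LUM, COL1A2 and COL1A1, further matrix genes, differed by -9.85, -9.47, -9.24 and -8.61. Of 24 tested genes on the list of fibroblast markers, 24 were lower and 0 higher on silk (0 higher at limma's unadjusted p under 0.05), and 13 of them passed the filter only through LN/PC co-cultures. On every other list at most 4 tested members passed only in this way.

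The fibroblast genes of the LN/PC co-cultures did not stand at one fraction of their level in fibroblasts alone. Over the 112 markers that fraction had a median of 13.2%, with quartiles of 7.14% and 22.0%. The highest and lowest are named here after their values were seen. CTHRC1, a secreted collagen triple helix repeat protein, was at 1019, 568 and 1312 on LN/PC and at 1506, 1403 and 1267 in fibroblasts, 69.4% of the fibroblast mean. ISLR, at 753, 517 and 755 against 1127, 1302 and 1036, and BCAT1, the cytosolic branched-chain aminotransferase, at 978, 663 and 779 against 1362, 1344 and 1291, stood at over 50% too, as did MME, TIMP3 and RCN3. At the other end, ADH1B, a class I alcohol dehydrogenase, was at 314, 29.6 and 494 on LN/PC and 30940, 30860 and 26070 in fibroblasts, 0.954%. In 110 of the 112 markers all silk libraries lay below all LN/PC libraries, and 18 markers on LN/PC stood under 5% of their fibroblast level.

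FAP, a serine protease known from activated fibroblasts, was among the high ones at 958, 347 and 887 on LN/PC, 45.6% of the fibroblast mean, and at 0.992, 0 and 12 on silk. TIMP3, a matrix-bound inhibitor of metalloproteinases, reached 5427, 4426 and 9248 on LN/PC against 9908 to 13290 in fibroblasts, and 28.9, 0.918 and 55.6 on silk. PDGFRB, a receptor of platelet-derived growth factor, was at 401, 466 and 649.7, 6.27% of its fibroblast level, and COL15A1, a collagen beneath basement membranes, was at 131, 177 and 381, 3.12%. On silk, PDGFRB did not exceed 4.24 and COL15A1 was at 0 in every library, at least 78.9-fold below LN/PC with a floor of 3 reads per library. IGFBP2, a binding protein of insulin-like growth factors, stood at 4.04%.

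Of 22 tested genes for fibrillar collagens and their crosslinking, 19 were lower and 1 higher on silk (median -2.69), and 11 of the 22 were fibroblast-enriched. The filter was passed only through LN/PC co-cultures by 4 of the 22. Among 13 contractile genes 10 were lower and none higher, 1 at limma's unadjusted p under 0.05 (median -1.91). ACTA2, smooth muscle actin, was at 313, 303 and 249.5 on silk and 1772, 1208 and 1620 on LN/PC (log2 difference -2.39 ± 0.18 SE, adjusted p = 1.39e-07). TAGLN, an actin-binding protein of smooth muscle and activated fibroblasts, was at 74.7, 32.5 and 48 and 4031, 2241 and 3325 (log2 difference -5.96 ± 0.49 SE, adjusted p = 2.49e-07). The silk values of ACTA2 lay at the level of epithelial monocultures, 212 to 295 on silk and 309 to 390.1 on LN/PC. FN1, fibronectin, which both cell types express, was at 13069, 10161 and 8457 on silk and 202220, 109860 and 153310 on LN/PC, and its mean was 14.7-fold higher on LN/PC. The FN1 difference no longer passed the test with fibroblast RNA subtracted at the summed share (adjusted p = 0.0538).

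In the list of FGF, HGF and PDGF ligands and receptors, 5 of 16 were higher and 6 lower on silk, with 6 of the 16 fibroblast-enriched. The filter on low values was passed only through LN/PC co-cultures by 4 of the 16, which in part had to differ. FGF7, keratinocyte growth factor, made by fibroblasts and received by epithelium, was at 7.36, 0 and 1.46 on silk and 259, 183 and 374 on LN/PC. PDGFRA was at 5.85, 17 and 18.2 and 652, 401 and 723. GREM1, an antagonist of bone morphogenetic proteins, was lower on silk too (log2 difference -2.99 ± 0.41 SE, adjusted p = 4.75e-05), at 128, 139 and 159.5 against 1490, 685 and 1421. Its silk co-cultures still stood above silk monocultures, which held 8, 19.9 and 23.7. With fibroblast RNA subtracted at the median share, the GREM1 difference turned to 7.11 (adjusted p = 1.86e-07). The share times the fibroblast level, 1435, came to more than the gap of 1056. The part subtracted exceeded every LN/PC library, whose values were set to 0, so 7.11 only restates the silk level. GREM1 on LN/PC stood at 10.8% of its fibroblast level, under the median of the markers.

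Only 1 fibroblast-enriched gene was called higher on silk. PTGS1, the constitutive cyclooxygenase of prostaglandin synthesis, was at 863, 930.4 and 1294 on silk and 568, 452 and 455 on LN/PC (log2 difference 1.05 ± 0.24 SE, adjusted p = 0.00381), with no overlap. In monocultures it was also higher on silk, 82.5 to 149.6 against 42.7 to 64.6, and the membrane difference did not differ in size between culture types by the test (interaction -0.17, adjusted p = 0.824). Rescaled on epithelium-enriched genes, the co-culture difference missed the threshold (adjusted p = 0.0560).

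For each gene lower on silk, the mean fibroblast share of the LN/PC co-cultures was multiplied by the mean level in fibroblasts alone. This gives the part of the LN/PC level that fibroblast RNA would contribute at that share, and it is set against the gap below. The epithelial RNA that fibroblast RNA displaces in a library is not taken off. For genes that epithelium also expresses, the product therefore overstates what the share adds to the gap. CALM2 was at 8574 in fibroblasts and 8462 in LN/PC monocultures, yet its product was 1112 of a gap of 8029. Of the 2539 lower genes, this part came to 50% or more of the gap for 601 at the median share and for 1192 at the summed share, and to under 10% for 306 and 206. Of 373 fibroblast-enriched genes it came to at least 50% for 285 and 342, and this class includes the markers that set the share. For the 55 epithelium-enriched genes it was under 10% in every one at both shares. That follows largely from the class definition, which keeps their fibroblast level low. Shared genes lay between, with 316 and 850 of 2111 at 50% or more. ANPEP, at 1432 of a gap of 2528, was on the upper side among them, and TIMP1, at 1555 of 7545, on the lower.

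**Figure D3:**
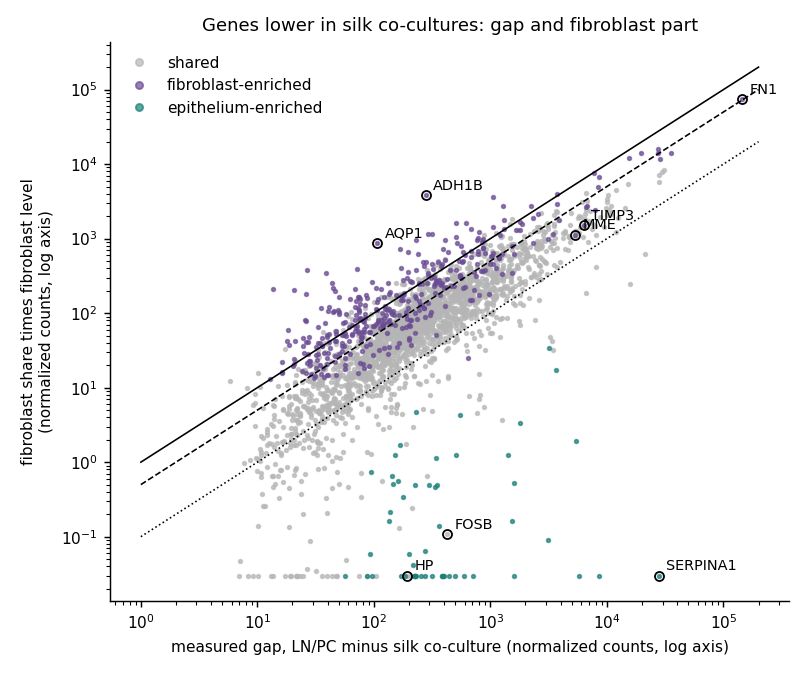
Genes called lower in silk co-cultures by their measured gap (x, LN/PC minus silk mean, normalized counts, log axis) and the fibroblast share times the fibroblast level (y, log axis, values under 0.03 drawn at 0.03); lines mark 100% (solid), 50% (dashed) and 10% (dotted) of the gap. All 55 epithelium-enriched genes lie under the 10% line, while 285 of 373 fibroblast-enriched genes lie above the 50% line. Both outcomes follow largely from how the classes and the share were defined.

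Some genes exceeded both parents. In 140 of the 2539 genes lower on silk (5.51%), each LN/PC co-culture library lay above all 12 libraries of the other groups, fibroblasts included. In 638 of the 2675 genes higher on silk (23.9%) each silk co-culture library lay above all 12 others, 66 of them epithelium-enriched and none fibroblast-enriched. Of all 2675 higher calls, 224 were epithelium-enriched and 1 fibroblast-enriched. The counts of 140 and 638 were taken among called genes only, not over all tested genes. MMP3, stromelysin 1, a protease of the extracellular matrix, was at 69.9, 52.2 and 58.2 on LN/PC, 4.82, 1.04 and 4.96 in fibroblasts and 0 in the 9 other libraries, which puts LN/PC at least 20.7-fold above silk co-cultures. CLGN, a chaperone of the endoplasmic reticulum, was at 165, 33.1 and 149 on LN/PC and 0 in all silk co-cultures, with 69.6 to 91 in fibroblasts. It overlapped the fibroblast range, as LN/PC replicate 2 was low.

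SULF1, which removes sulfate from heparan sulfate and was named after its values were seen, was at 746, 543 and 659.6 on LN/PC, 192, 172 and 212 in fibroblasts and 4.56, 0 and 4.51 on silk. RARRES2 (chemerin), named in the same way, was at 234, 255 and 509 on LN/PC against 65.5, 58.2 and 60.3 in fibroblasts and 35.1, 10.7 and 40.6 on silk. Both stood higher in LN/PC co-cultures than in either cell type alone. Of 18 matrix proteases and inhibitors, 11 were lower and 2 higher on silk (median -1.40). The filter was passed only through LN/PC co-cultures by 3 of the 18. TIMP1, a metalloproteinase inhibitor, was at 1570, 1943 and 1636 on silk and 8441, 8073 and 11270 on LN/PC (log2 difference -2.42 ± 0.28 SE, adjusted p = 8.86e-06), and it was lower on silk in monocultures as well (-1.70, adjusted p = 0.00154).

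Epithelial identity genes were tested next. On the list of nephron transcription factors 8 of 20 were higher and 1 lower on silk, with a median of 0.21 that became -0.25 on the epithelium-rescaled values, where the median of all genes was -0.42. PAX8, a paired-box factor of kidney epithelium, was at 3224, 3398 and 3784 on silk and 1882, 1832 and 1922 on LN/PC (log2 difference 0.88 ± 0.18 SE, adjusted p = 0.00143), and missed the threshold with rescaled libraries (adjusted p = 0.0691). TFCP2L1 and FOXC1 were higher by 1.11 and 1.52. ESRRG, a nuclear receptor of oxidative metabolism, went the other way at 212, 221 and 206 against 427, 533 and 352 (log2 difference -1.01 ± 0.19 SE, adjusted p = 6.48e-04). In fibroblasts FOXC1 reached 38.5 normalized counts and the other 3 factors at most 1.02.

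**Figure D4:**
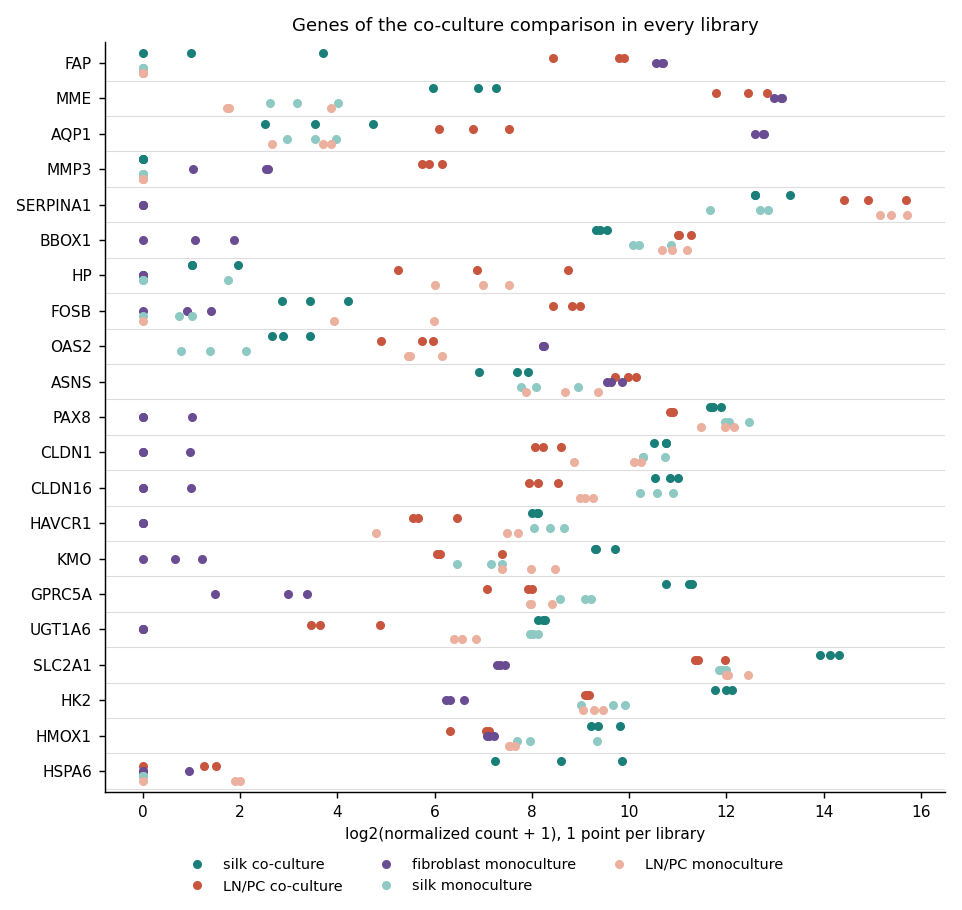
Levels of 21 genes in all 15 libraries (x, log2 of normalized count + 1; 1 point per library, coloured by group). FAP and MME separate the LN/PC from the silk co-cultures along with fibroblasts, SLC2A1 and HK2 stand highest in silk co-cultures, and SERPINA1 and HP are lower on silk with and without fibroblasts.

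Junction genes were mostly higher on silk or not called. Of 26 tight junction and polarity genes 12 were higher and 2 lower, with a median of 0.49 (0.04 rescaled), and 16 of the 26 were epithelium-enriched. CLDN16, a claudin of paracellular magnesium transport, was at 1833, 1476 and 2057 on silk and 278, 245 and 370.1 on LN/PC (log2 difference 2.59 ± 0.19 SE, adjusted p = 1.05e-07). CLDN1, a sealing claudin, was at 1740, 1462 and 1724 and 298, 266 and 388, 5.18-fold higher on silk, with a difference larger than that in monocultures (interaction 1.68, adjusted p = 0.0124). CGNL1 (paracingulin), a junction protein that fibroblasts held at 140.0 to 181, was at 1358, 1176 and 1344 and 234, 206 and 249.9. In these 3 genes the lowest silk library exceeded the highest LN/PC library several times over. CDH1, E-cadherin, was at 116, 113 and 101 on silk and 37.5, 48 and 37.5 on LN/PC (log2 difference 1.41 ± 0.27 SE, adjusted p = 9.54e-04), and CDH6, the cadherin of the proximal tubule lineage, at 240.5, 228 and 246 and 65.3, 70.0 and 62.6 (log2 difference 1.84 ± 0.21 SE, adjusted p = 6.10e-06). Kidney cadherin CDH16 was not called, at 6669, 7400 and 7435 against 7756, 11044 and 7598 (adjusted p = 0.283), and was lower on silk when libraries were rescaled (-0.73, adjusted p = 0.00397).

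Of 16 integrins, the receptors of cells for matrix, 5 were higher and 7 lower on silk (median -0.13). With fibroblast RNA subtracted, 15 were tested. At the median share 6 were higher and 2 lower (median 0.06), and at the summed share 5 and 3 (median 0.21). ITGB4, the hemidesmosome integrin subunit that binds laminin, was at 5576, 6185 and 6893 on silk and 1720, 1657 and 1747 on LN/PC (log2 difference 1.86 ± 0.20 SE, adjusted p = 4.95e-06). ITGB3 was at 2986, 3002 and 2988 and 900.0, 986 and 1101, and LAMA3, a laminin chain of epithelial basement membrane, at 1200, 1568 and 1718 and 320.2, 438 and 285 (log2 difference 2.11 ± 0.37 SE, adjusted p = 4.99e-04). Of 22 basement membrane genes 9 were higher and 3 lower. The fibroblast-enriched NID1 and LAMA2 were among the lower ones, at 2.53, 1.78 and 5.44 and 20.1, 17.8 and 14.9 on silk against 300.0, 157 and 397 and 626, 483 and 742 on LN/PC. For LAMA2 the share times the fibroblast level, 609, was as large as the gap, 599.5.

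Proximal tubule carriers were represented by 13 tested genes, of which 5 were higher and 2 lower on silk (median 0.54, 0.09 rescaled). SLC17A3, an apical exit route for organic anions and urate, was at 225, 162 and 154 on silk and 63.1, 70.4 and 44.2 on LN/PC (log2 difference 1.59 ± 0.33 SE, adjusted p = 0.00179), and it differed by 2.61 in monocultures. SLC4A4, the basolateral sodium bicarbonate cotransporter, was at 848, 949 and 902 and 469, 504 and 292 (log2 difference 1.13 ± 0.20 SE, adjusted p = 5.41e-04). SLCO4C1, a basolateral organic anion transporter, was 1.94-fold higher on silk, a call lost on rescaling (adjusted p = 0.0957) and with fibroblast RNA subtracted at the summed share (0.0827). FXYD2, the kidney regulator of the sodium pump, was at 20130, 14890 and 18638 against 8038, 12861 and 9734 (adjusted p = 0.0116). The FXYD2 call was lost on rescaling (adjusted p = 0.194), with fibroblast RNA subtracted at the summed share (0.101) and without silk replicate 1 (0.0527) or LN/PC replicate 1 (0.0634). The pump subunit ATP1B1 was lower on silk, at 7876, 8343 and 7533 against 11848, 13315 and 9542 (adjusted p = 0.0397), a call that did not hold in 5 of 6 fits leaving out 1 co-culture library, all but that without LN/PC replicate 3, with adjusted p of 0.0739 to 0.140.

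Names used as proximal tubule markers did not all mark epithelium here. AQP1, the water channel of proximal tubule and of some other cells, was at 6193, 6990 and 6944 in fibroblasts and at 6.82 to 14.7 and 5.29 to 13.5 in silk and LN/PC epithelial monocultures. Co-cultures held 10.7, 25.5 and 4.67 on silk and 109.6, 67.6 and 184 on LN/PC (log2 difference -3.22 ± 0.55 SE, adjusted p = 3.75e-04), only 1.8% of the fibroblast level on LN/PC. MME (neprilysin), a brush border peptidase that fibroblasts also carry, was at 118, 61.4 and 153 on silk, 7289, 3543 and 5543 on LN/PC and 8081 to 9024 in fibroblasts. ANPEP, aminopeptidase N, was at 2131, 2186 and 1546 on silk, 5719, 3424 and 4303 on LN/PC and 9754 to 11757 in fibroblasts (log2 difference -1.18 ± 0.22 SE, adjusted p = 7.57e-04), and the difference was no longer called with fibroblast RNA subtracted at the summed share (-0.44, adjusted p = 0.227). CUBN (cubilin), the endocytic receptor, was low everywhere, with 29.6, 21.6 and 57.8 on silk, 14.9, 8.19 and 52.5 on LN/PC and 111, 193 and 149.7 in fibroblasts, and was not called. It was called higher on silk with fibroblast RNA subtracted (3.38, adjusted p = 0.0188 at the median share, and 3.68, adjusted p = 0.00889 at the summed share). Where the part subtracted exceeded the level, no counts were left, as for CUBN in LN/PC libraries. That call therefore cannot be read as an excess on silk. Of 14 brush border and endocytosis genes 3 were higher and 4 lower on silk.

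Injury-associated genes of the tubule were mixed, with 6 of 21 higher and 2 lower (median 0.21, -0.24 rescaled). HAVCR1, the kidney injury molecule, was at 257, 273 and 277 on silk and 87.3, 49.6 and 46.1 on LN/PC (log2 difference 2.18 ± 0.52 SE, adjusted p = 0.00455). In LN/PC monocultures HAVCR1 ranged from 26.9 to 209 and on silk from 262 to 402. VCAM1, also a fibroblast-enriched adhesion molecule here, was at 5.04, 9.87 and 3.35 and 138, 71.1 and 209.8, a call lost with fibroblast RNA subtracted at the summed share (-0.75, adjusted p = 0.707). SPP1 (osteopontin), the matrix phosphoprotein, overlapped at 106490, 103830 and 118750 against 157010, 215790 and 106080 and was not called, nor was VIM (vimentin), at 61710, 58927 and 62163 against 75012, 63621 and 69561, or the drug efflux pump ABCB1, at 1051, 929 and 691 against 876, 694 and 691.

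The epithelium-enriched genes with the largest excess on silk were metabolic and signalling genes. UGT1A6, a glucuronosyltransferase of phenol detoxification, was at 309.6, 279.9 and 297 on silk and 28.5, 10.0 and 11.6 on LN/PC (log2 difference 4.21 ± 0.31 SE, adjusted p = 7.83e-08). It shares exons with the other UGT1A genes, so reads may be split among them. GPRC5A, a retinoic acid-induced orphan receptor, was at 2515, 1721 and 2420 and 134, 254 and 242 (log2 difference 3.43 ± 0.25 SE, adjusted p = 6.69e-08), and KMO, kynurenine monooxygenase of tryptophan breakdown, at 634, 626 and 839 and 65.1, 68.4 and 166 (log2 difference 2.92 ± 0.35 SE, adjusted p = 1.08e-05). The groups were far apart in all 3. In monocultures KMO was not called and lay at 86.6 to 167 on silk and 167 to 355 on LN/PC, and its membrane difference differed between culture types (interaction 3.87, adjusted p = 8.55e-05).

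RASSF6, SPNS2, an exporter of sphingosine 1-phosphate, and CDK18 were 6.46-, 6.67- and 6.23-fold higher on silk. SPNS2 and CDK18 were called higher on silk in monocultures too, by 1.52 and 1.21. PPARGC1A, a coactivator of mitochondrial biogenesis, was at 722, 662 and 697 on silk and 118, 139.9 and 195 on LN/PC (log2 difference 2.22 ± 0.21 SE, adjusted p = 1.10e-06). TGFA, a ligand of the EGF receptor made by epithelium, was at 1519, 1497 and 1672 and 470.3, 644 and 486, and its receptor EGFR, expressed by both cell types, at 1450, 1923 and 2188 and 755, 1027 and 820.0 (log2 difference 1.09 ± 0.20 SE, adjusted p = 7.04e-04).

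Fibroblasts held few or no reads of the epithelium-enriched genes that were lower on silk. SERPINA1, alpha-1-antitrypsin, was at 6174, 10086 and 6129 on silk and 30909, 53161 and 21778 on LN/PC (log2 difference -2.18 ± 0.34 SE, adjusted p = 1.64e-04), with 0 in fibroblasts. PCSK6, a proprotein convertase, was at 103, 149 and 121 and 505, 782 and 399.9, and SUSD4, a complement-regulating membrane protein, at 272, 334 and 207 and 813, 1374 and 744. GPC3, a cell surface heparan sulfate proteoglycan, was at 194, 242 and 178 against 528, 881 and 704. Each of these 4 was also lower on silk in monocultures, by -3.02, -1.52, -2.26 and -2.20, and none had an interaction past the threshold (adjusted p = 0.333, 0.364, 0.474 and 0.44). BBOX1, the last enzyme of carnitine synthesis, differed from them. It was at 745, 642 and 676 on silk and 2054, 2469 and 2100 on LN/PC (log2 difference -1.68 ± 0.19 SE, adjusted p = 6.52e-06), more than in monocultures (interaction -1.13, adjusted p = 0.0143). The unnamed gene ENSG00000285330 had 463, 525 and 386 and 1774, 2540 and 1280.

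SLC2A1, the GLUT1 glucose transporter, was at 20519, 15466 and 17845 on silk and 2728, 4022 and 2616 on LN/PC (log2 difference 2.54 ± 0.19 SE, adjusted p = 1.00e-07). Epithelial monocultures held 3705 to 4062 on silk and 4069 to 5579 on LN/PC, and fibroblasts 155 to 174, so each silk co-culture lay above every other library. HK2, the inducible hexokinase that traps glucose, was at 4439, 3475 and 4068 and 565, 579.7 and 542 (log2 difference 2.82 ± 0.19 SE, adjusted p = 4.89e-08), against 517 to 963 and 532 to 706 in monocultures. The membrane difference in co-cultures exceeded that in monocultures for both, by 2.78 (adjusted p = 7.50e-06) and 2.55 (adjusted p = 1.87e-05). ENO2, an enolase isoform, was at 5027, 4510 and 4177 and 1023, 960.3 and 819.

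Of 19 glycolysis genes 4 were higher and 2 lower on silk, and their median was 0.22, which turned to -0.24 on rescaled values. SLC16A1, a lactate carrier, was lower at 3068, 2868 and 3351 against 5729, 6505 and 4816. On the list of hypoxia response genes 9 of 25 were higher and 2 lower (median 0.53, 0.08 rescaled). NDRG1, a hypoxia-induced gene of the list, was at 21756, 19393 and 20352 on silk and 5868, 8690 and 4112 on LN/PC (log2 difference 1.79 ± 0.25 SE, adjusted p = 6.70e-05), and STC2, a secreted glycoprotein, at 1716, 1454 and 1411 and 298, 349.9 and 412 (log2 difference 2.12 ± 0.25 SE, adjusted p = 1.16e-05). HILPDA, a regulator of lipid droplets, was 3.86-fold higher. VEGFA, the vascular growth factor, was not called at 10294, 11568 and 9494 against 9865, 10378 and 6730 (adjusted p = 0.37). CA9, a carbonic anhydrase used as a hypoxia marker, was at 348, 261 and 310.1 and 82, 181 and 58.4, without overlap but not called (adjusted p = 0.166), and was called in the fit of the 6 co-culture libraries alone (adjusted p = 0.00116).

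**Figure D5:**
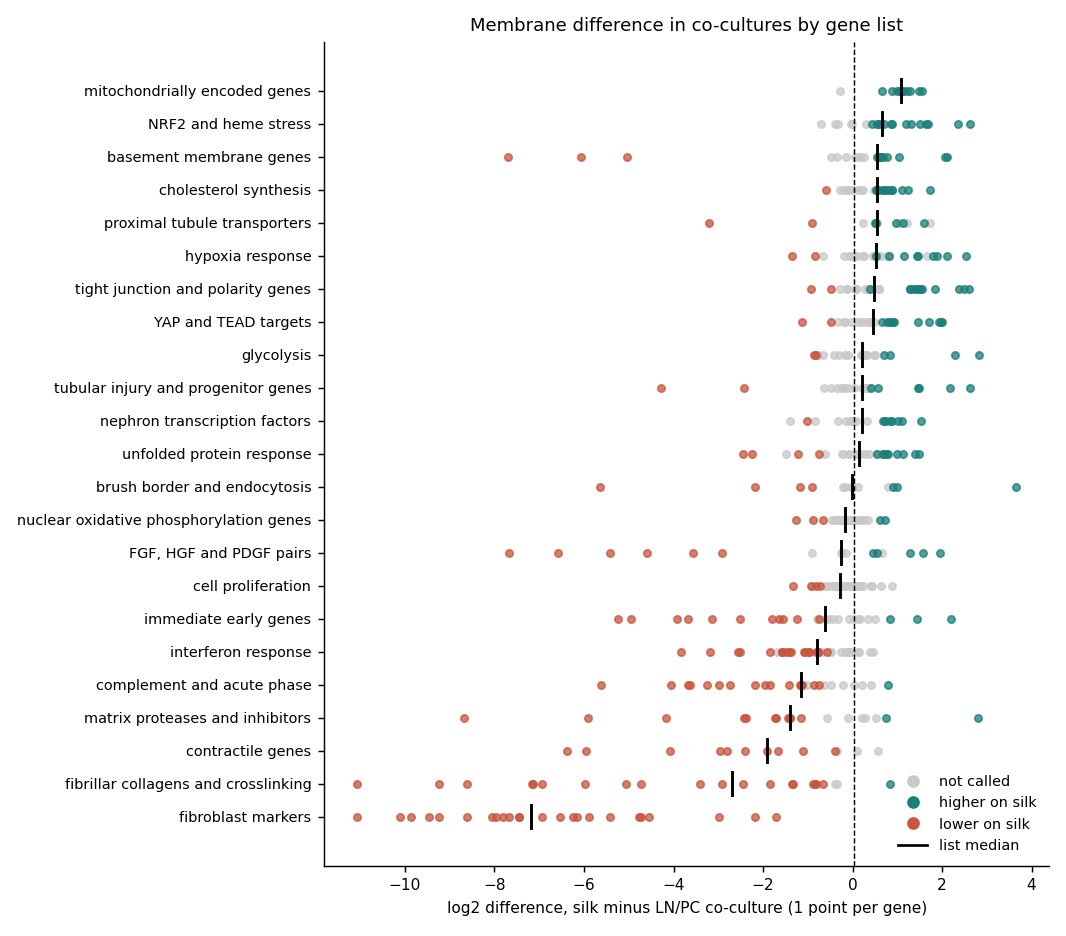
Difference between silk and LN/PC co-cultures for each tested gene of 23 gene lists (x, log2; points coloured by call; black bars, list medians; dashed line, the median of all tested genes). The lowest median is that of the fibroblast markers, the highest that of the mitochondrially encoded genes at 1.09.

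Mitochondrially encoded transcripts took a larger part of the RNA on silk, 5.97% ± 0.501 against 2.37% ± 0.584 of normalized counts (SD, n = 3 each; exact permutation test, two-sided, p = 0.1, the smallest possible). Of 13 such genes 12 were higher and none lower, also none at limma's unadjusted p under 0.05, with a median of 1.09. On rescaled values the median was 0.64, with 4 called higher and 1 called lower. MT-ND1, a subunit of respiratory complex I, was at 27563, 32865 and 36984 on silk and 9542, 10719 and 12939 on LN/PC, and MT-CO1, of cytochrome c oxidase, at 127220, 128260 and 144850 and 44477, 40480 and 59576. Silk and LN/PC monocultures held 13820 to 31260 and 6777 to 15241 of MT-ND1, and fibroblasts 8791 to 10978. Nuclear genes of oxidative phosphorylation did not share the direction, with 2 of 32 higher and 3 lower. COX6C, a nuclear subunit of cytochrome c oxidase, was at 233, 216 and 253 against 598, 592 and 494 (log2 difference -1.26 ± 0.25 SE, adjusted p = 0.0014), and UQCRB, of complex III, at 2124, 1442 and 1750 against 3884, 3188 and 2790. A high mitochondrial part of the RNA is also used as a sign of RNA quality, and its part in the other results was not tested.

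Oxidative stress and iron genes were among the most one-sided lists before rescaling. Of 20 NRF2 and heme stress genes 14 were higher and none lower on silk, with 2 lower at limma's unadjusted p under 0.05 (median 0.66). On rescaled values 7 were higher and 4 lower (median 0.21). HMOX1, heme oxygenase 1, was at 896, 657 and 594 on silk and 132, 138 and 79.1 on LN/PC (log2 difference 2.63 ± 0.33 SE, adjusted p = 1.95e-05). FTL, the ferritin light chain, was at 13717, 12507 and 14691 and 3249, 4323 and 5475 (log2 difference 1.68 ± 0.32 SE, adjusted p = 8.35e-04), with 11766 to 15465 in fibroblasts. ME1, malic enzyme 1, a source of NADPH, was at 322, 244 and 310.0 and 93.5, 74.7 and 115 (log2 difference 1.63 ± 0.24 SE, adjusted p = 7.33e-05), and OSGIN1 at 88.1, 59.9 and 67.3 and 29.7, 4.5 and 15.5. The antioxidant response element core TGACNNNGC, searched on both strands in the 250 bases before the RefSeq start, was present for 4 of the 14 list members with a promoter in the RefSeq table (GCLM, TXNRD1, PGD and ME1, all 4 called higher) and for 11.9% of 10919 tested genes. Most of the 14 were called higher, and the core was present in 4 of these 11 and in 0 of the 3 not called. The upstream sequence of ME1 (GRCh38.p14, chr6:83431052-83431301, minus strand) is shown as one such promoter, with the match in capitals:
ME1: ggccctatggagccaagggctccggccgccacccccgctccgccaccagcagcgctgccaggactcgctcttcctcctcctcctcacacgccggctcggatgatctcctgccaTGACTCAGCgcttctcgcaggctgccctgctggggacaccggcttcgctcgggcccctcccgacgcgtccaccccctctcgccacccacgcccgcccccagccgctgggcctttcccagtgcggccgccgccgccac

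HSPA6, a strictly inducible HSP70 chaperone, was at 385, 929 and 151 on silk and 1.39, 0 and 1.84 on LN/PC, and at most 2.99 in any of the 9 monoculture libraries. The LN/PC group held about 3 reads in all, and the ratio of the group means was 454 (95% exact interval 149 to 2120, counting error only). Silk replicate 2 was the highest and replicate 3 the lowest, and all 3 lay above every other library. HSPA6 has a near-identical copy, HSPA7, between which reads may be split. HSPA1A and HSPA1B, the inducible HSP70 pair, were looked at after their values were seen and are near-identical too. HSPA1A was at 2740, 2745 and 1789 on silk and 709.5, 756 and 809 on LN/PC, and HSPA1B at 3640, 3038 and 2180 and 489.6, 558 and 697 (log2 difference 2.33 ± 0.24 SE, adjusted p = 3.35e-06). The upstream sequence of HSPA6 (GRCh38.p14, chr1:161524290-161524539, plus strand) is shown with its 2 matches to a heat shock element of 2 units, GAANNTTC, which reads the same on both strands, in capitals. They begin 180 and 69 bases before the start, and 4.11% of the 10919 tested genes hold a match in the same window:
HSPA6: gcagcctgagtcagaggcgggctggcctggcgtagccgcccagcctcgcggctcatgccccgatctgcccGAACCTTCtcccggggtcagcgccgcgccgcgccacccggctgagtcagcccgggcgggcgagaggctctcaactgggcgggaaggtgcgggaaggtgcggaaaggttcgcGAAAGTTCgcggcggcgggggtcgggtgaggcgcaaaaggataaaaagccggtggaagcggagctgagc

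Secretory and amino acid stress genes split. Of 26 genes of the unfolded protein response 9 were higher and 4 lower, with a median of 0.15 (-0.30 rescaled), and for 10 the membrane difference differed between culture types. DNAJB9, a cochaperone of the endoplasmic reticulum, was at 425, 476 and 319 on silk and 134, 131 and 164 on LN/PC, and DDIT3 (CHOP), a stress-induced transcription factor, at 683, 566 and 423 and 198, 224 and 203. The 4 lower ones were ASNS, PHGDH, PSAT1, a further enzyme of serine synthesis, and CRELD2, the last 2 named to complete the count. ASNS, asparagine synthetase, was at 240.1, 205 and 119.7 and 1129, 839 and 1003 (log2 difference -2.44 ± 0.35 SE, adjusted p = 6.55e-05), and PHGDH, the first enzyme of serine synthesis, at 323, 297 and 265 and 1852, 1321 and 1136 (log2 difference -2.25 ± 0.31 SE, adjusted p = 5.34e-05). PCK2, the mitochondrial PEP carboxykinase, which is on another list, was at 102, 116 and 123 and 477, 411 and 369. For ASNS the fibroblast share times the fibroblast level came to 106 of a gap of 802, and for PHGDH to 266 of 1141.

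Cholesterol synthesis genes were higher on silk in 12 of 25 and lower in 1 (median 0.55, 0.09 rescaled with 3 higher and 4 lower). INSIG1, the sterol sensor that holds back cholesterol synthesis, was at 2433, 2048 and 2345 on silk and 912, 479 and 743 on LN/PC (log2 difference 1.72 ± 0.23 SE, adjusted p = 2.94e-05), HMGCS1, an early enzyme, at 2113, 2252 and 1949 and 1180, 641 and 949, and ACAT2, the first, at 697, 607 and 520.4 and 373, 183 and 324. The monocultures had a median of 0.52 on this list, and no member had an interaction past the threshold.

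Interferon-stimulated genes were lower on silk. Of 36 tested, none was higher, also none at limma's unadjusted p under 0.05, and 20 were lower, with a median of -0.80, and in monocultures 22 were lower (median -0.96). SAMD9, an antiviral factor, was at 35.6, 26.8 and 31.1 on silk and 435, 201 and 282 on LN/PC (log2 difference -3.19 ± 0.35 SE, adjusted p = 5.19e-06), and XAF1, a pro-apoptotic interferon target, at 23.5, 27.7 and 29.6 and 166, 125 and 188 (log2 difference -2.51 ± 0.31 SE, adjusted p = 1.68e-05). Fibroblasts carried more of both, 658 to 732 and 319.5 to 397. OAS2, which senses double-stranded RNA, was at 9.82, 5.27 and 6.35 and 61.9, 29 and 52.4. For OAS2 the share times the fibroblast level, 39, nearly equalled the gap of 40.6, and with fibroblast RNA subtracted the difference turned to 0.37 (adjusted p = 0.766). MX2, a GTPase against viruses, was at 0, 2.82 and 0 and 25.9, 14.1 and 26.3, where the silk group held 1 to 3 reads and the ratio was 23.5 (95% exact interval 7.86 to 120, counting error only). Subtraction at the median share gave 19 lower and none higher of 36, and at the summed share 17 lower and 1 higher of 35, the latter being OAS2 (2.92, adjusted p = 0.00178). That OAS2 call rests on LN/PC values set to 0 by the subtraction.

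The interferon-stimulated response element core GAAANNGAA, searched in the same window and on both strands, was present for 17 of the 28 list members with a promoter in the table, and for 5.51% of the 10919 tested genes. It was present in 8 of 16 members called lower and in 9 of 12 not called. IFI6 and SAMD9, both called lower, are shown with their 3 and 1 matches in capitals (GRCh38.p14, chr1:27672193-27672442 and chr7:93117980-93118229, both on the minus strand):
IFI6: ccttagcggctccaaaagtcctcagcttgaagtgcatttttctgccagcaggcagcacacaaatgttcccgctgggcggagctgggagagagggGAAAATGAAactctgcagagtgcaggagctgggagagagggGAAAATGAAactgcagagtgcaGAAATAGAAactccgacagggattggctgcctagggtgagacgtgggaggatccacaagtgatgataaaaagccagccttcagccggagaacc
SAMD9: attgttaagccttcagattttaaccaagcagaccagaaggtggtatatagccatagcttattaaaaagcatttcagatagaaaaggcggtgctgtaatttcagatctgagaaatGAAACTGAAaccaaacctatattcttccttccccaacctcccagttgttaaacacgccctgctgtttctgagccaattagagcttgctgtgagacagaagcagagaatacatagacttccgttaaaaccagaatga

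Complement and acute phase genes had a similar pattern, with 17 of 25 lower and 1 higher on silk (median -1.15), and 14 lower in monocultures. HP (haptoglobin), the plasma binder of free hemoglobin, was at 1.01, 2.89 and 1.03 on silk and 431, 116 and 36.9 on LN/PC (log2 difference -5.63 ± 0.73 SE, adjusted p = 2.69e-05), with 0 in fibroblasts. HP shares most of its sequence with HPR, so its reads are uncertain between them. A2M, the protease inhibitor alpha-2-macroglobulin, was at 2.02, 9.97 and 23 and 144, 270.3 and 90.4 (log2 difference -4.05 ± 0.68 SE, adjusted p = 3.03e-04). In monocultures both were lower on silk too, at -6.27 and -7.11, and the interaction missed the threshold (adjusted p = 0.77 and 0.0634). COL21A1, a minor collagen expressed here by LN/PC epithelium as well as by fibroblasts, behaved alike, at 2.72, 10.2 and 14.9 and 135, 267 and 183, and so did ENSG00000273259, at 6.2, 21.2 and 4.4 and 239, 484 and 159.

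Immediate early genes, which respond within minutes to growth factors and stress, were lower on silk in 11 of 25 and higher in 3 (median -0.61). FOSB was at 17.7, 9.76 and 6.23 on silk and 506, 343 and 455 on LN/PC (log2 difference -5.25 ± 0.97 SE, adjusted p = 7.04e-04), with at most 1.65 in fibroblasts and at most 62.5 in monocultures. EGR3 was at 7.05, 1.54 and 3.6 and 136, 126 and 162, EGR2 at 20.6, 22.3 and 6.28 and 206, 174 and 207, and NR4A1, an orphan nuclear receptor, at 39.7, 21.6 and 5.15 and 280.3, 239 and 288. For FOSB and NR4A1 the LN/PC co-cultures lay above every other library. In monocultures 2 members were higher and 6 lower on silk (median -0.44). The interaction was called for 1 member, NR4A1 (-4.21, adjusted p = 0.0422), which differed by 0.29 in monocultures. The way of harvest, scraping on silk and cutting on LN/PC, differs between the membranes for this list as for every other, and its part was not tested.

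Targets of YAP and TEAD, which respond to cell shape and stiffness, were higher on silk in 11 of 24 and lower in 2, with a median of 0.45 in co-cultures and in monocultures alike (-0.03 rescaled). AJUBA, a LIM protein of junctions, was at 1696, 1352 and 1731 on silk and 313, 424 and 456 on LN/PC (log2 difference 2.01 ± 0.21 SE, adjusted p = 3.45e-06), NUAK2, a stress kinase, at 303, 351 and 320.1 and 72.1, 69.5 and 122, and CRIM1, a membrane protein that binds growth factors, at 3363, 3217 and 3891 and 863, 1193 and 1182. Proliferation genes were mostly not called, with none of 35 higher, 1 at limma's unadjusted p under 0.05, and 4 lower. RRM2, a ribonucleotide reductase subunit, was at 263, 192 and 123 and 592, 485 and 357 (adjusted p = 0.0136), lost without silk replicate 3 (0.0766) or LN/PC replicate 1 (0.0556). NUSAP1, a spindle protein, was at 139, 152 and 103 and 251, 283 and 218 (adjusted p = 0.0253), lost without silk replicate 3 (0.109), LN/PC replicate 1 (0.0593) or LN/PC replicate 2 (0.0788).

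Ligands, receptors and binding proteins of signalling pathways also differed. IGFBP5, which binds insulin-like growth factors, was at 2746, 2716 and 2733 on silk and 247, 202 and 274 on LN/PC (log2 difference 3.51 ± 0.17 SE, adjusted p = 9.57e-10), with 184 to 285 in fibroblasts. FZD10, a Wnt receptor, was at 157, 120.0 and 134 and 7.19, 6.45 and 8.98 (log2 difference 4.02 ± 0.38 SE, adjusted p = 1.15e-06), and SFRP1, a secreted Wnt antagonist, at 2828, 2909 and 3021 and 773, 672 and 818 (log2 difference 1.96 ± 0.18 SE, adjusted p = 9.23e-07). WNT5B, a ligand that fibroblasts held at 1096 to 1225, was lower at 112, 90.6 and 86.1 against 744, 429.6 and 603 (log2 difference -2.58 ± 0.24 SE, adjusted p = 1.08e-06). On the Wnt list as a whole 11 of 29 were higher and 5 lower, and on the Notch list 6 of 10 were higher and 2 lower, among them the ligand JAG2 at 268, 236 and 246 and 63.2, 58.7 and 40.1. TGFB1, the main fibrogenic cytokine, was not called at 1027, 1041 and 1189 against 798, 858 and 844 (adjusted p = 0.063), with no overlap, and turned to -0.07 on rescaled values. SH2D5, GAD1, EDN2 and ARFGEF3, the remaining shared genes with the largest excess on silk, were 16.9-, 15.1-, 15.2- and 12.7-fold higher, and all 4 were called higher on silk in monocultures too.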

How the data were processed

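Poly-A RNA of 15 libraries was sequenced, 3 in each of 5 groups given by the titles. Per the submitters' processing notes, the authors used Salmon 1.10.3 and DESeq2. No build or annotation is named, so these count as not given in the sources used here. A table of 15790 genes in 15 columns was deposited. Its deposited log2 values never fall below 5.53664461, the shape left by a variance-stabilizing transformation, whereas a linear scale had been planned for. Inverting the transformation with that lowest value as its constant gave normalized counts, with the lowest value at 0. Checked over 13121 genes above it everywhere, each library's median ratio to the per-gene geometric mean came to 1.01175. Assigned reads were about 8.8 to 14.5 per library in units of 1e6, and floors and intervals (95%, exact) cover counting error only.

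Limma 3.58.1 (R 4.3.3, trend option) was fitted to log2(value + 1) of the 12 epithelial libraries, 1 mean per group, for genes with at least 10 in at least 3 libraries. The method was tested on simulated data. The fibroblast share is the median over 112 markers (mean of at least 1000 in fibroblasts, 100 times each epithelial monoculture group) of the excess over the monocultures of the same membrane, as a percent of that in fibroblasts. Named genes are, per class and direction, the 6 largest called differences without overlap and with a mean of at least 100, up to 4 called members per list, and a panel of 20. Others are said to be chosen after their values were seen. Of the genes this rule takes, 2 are not reported here. Members and lists were chosen with earlier results of these data known. No replicates were identical in any pair. Alternatives were other filters, pseudocounts of 0.5 and 5, rescaling on the upper quartile or on epithelium-enriched genes, subtraction of fibroblast RNA, the 6 co-culture libraries alone, a replicate block, the deposited log2 values, other class and marker thresholds, and leaving out each co-culture library. In the subtraction, a part larger than the level left no counts. A filter on the monoculture libraries was chosen after seeing the data. Motifs were shortened to under 10 bases after longer forms had been searched. Promoters are from RefSeq (GRCh38.p14), matched by symbol for 10919 of 14433 tested genes. Genes whose promoter is on chromosome 8 were left out of that match.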

Additional observations from a re-analysis of the deposited data

Results flagged for a closer look

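The labels give groups of 3 libraries, which are too few for a test of a single library standing apart. Below are the genes named in the text for which the membrane difference in co-cultures itself differed from that in monocultures, by limma's interaction term over the 12 epithelial libraries with Benjamini-Hochberg adjustment over all tested genes (adjusted p from 2.92e-07 to 0.0496). The value is the co-culture difference minus the monoculture difference, on the log2 scale, each from 3 libraries per group. Epithelial monocultures hold no fibroblasts, so for fibroblast-enriched genes the value largely restates the co-culture difference, and 239 of the 412 tested passed the filter on low values only through the LN/PC co-cultures. The monoculture difference was 0 for COL3A1, POSTN, FAP, COL15A1, SULF1 and ADH1B.

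Among fibroblast-enriched genes the value was most negative for COL3A1 (-11.07), COL1A2 (-10.81), PDGFRB (-10.44), THBS2 (-10.22), COL6A3 (-10.14), POSTN (-10.12), COL1A1 (-9.48), LUM (-8.91), ISLR (-8.52), TIMP3 (-8.34), CTHRC1 (-7.96), FAP (-7.82), COL15A1 (-7.70) and SULF1 (-7.69). It was also negative for ADH1B (-6.95), BCAT1 (-6.91), FGF7 (-6.85), TAGLN (-6.76), IGFBP2 (-6.48), MME (-6.45) and NID1 (-5.39). The same direction held for LAMA2 (-5.22), GREM1 (-5.02), FN1 (-4.66), PDGFRA (-4.04), AQP1 (-3.31) and SAMD9 (-2.94).

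Epithelium-enriched genes with a larger silk excess in co-cultures were KMO (3.87), UGT1A6 (2.79), SLC2A1 (2.78), GPRC5A (2.58), RASSF6 (2.16) and PPARGC1A (1.85). Smaller positive values were those of CLDN1 (1.68), CDK18 (1.43), SPNS2 (1.21), CLDN16 (1.14), FOXC1 (1.13) and TGFA (1.07). A negative value among epithelium-enriched genes was that of BBOX1 (-1.13).

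Shared genes with positive values were HSPA6 (8.94), UPP1 (3.55), FZD10 (3.30), CPA4 (2.98), CCN3 (2.65), SH2D5 (2.55), HK2 (2.55), NPR1 (2.42), SLC22A3 (2.40), HSPA1A (2.19), HSPA1B (2.18) and SIK1 (2.17). These were followed by LAMA3 (1.89), HMOX1 (1.88), CGNL1 (1.68), IGFBP5 (1.65), DNAJB9 (1.63), NDRG1 (1.59), DDIT3 (1.50), ARFGEF3 (1.47), JAG2 (1.38), CRIM1 (0.91) and ENO2 (0.72). Shared genes with negative values were MMP3 (-5.92), CLGN (-5.91), NR4A1 (-4.21), RARRES2 (-3.41) and WNT5B (-2.19). Further negative values were those of ASNS (-2.06), ACTA2 (-1.96), XAF1 (-1.83), PCK2 (-1.70) and ANPEP (-1.66). HSPA6, HSPA1A and HSPA1B have near-identical copies, which makes their own values uncertain.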

How the results depend on the processing

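Of the 133 tested genes named, 112 kept their direction and their side of the threshold in every one of 18 alternatives in which they were tested. Leaving out 1 co-culture library gave 3415 to 4745 calls against 5214, with 1794 to 2509 higher and 1478 to 2236 lower on silk. The lowest total was that without LN/PC replicate 1. The lower calls then numbered 182 to 366 among fibroblast-enriched genes (182 to 202 without 1 LN/PC library, where fewer passed the filter), and 1250 to 1991 among shared genes, with 1620 to 2302 shared genes higher. Without silk replicate 3 the shared genes had 1620 higher and 1332 lower, and without LN/PC replicate 1 they had 1250 lower. Rescaled on epithelium-enriched genes, calls were 1003 higher and 5764 lower, with 128 and 123 among epithelium-enriched and 875 and 5243 among shared genes. Subtracting fibroblast RNA left 147 (median share) or 71 (summed share) fibroblast-enriched genes lower, and at the summed share 141 epithelium-enriched genes higher and 97 lower. With classes cut at 4-fold, 450 epithelium-enriched genes were higher and 99 lower. At 30-fold 76 were higher and 24 lower, and 225 fibroblast-enriched genes were lower, since the classes are larger or smaller by construction. The share from summed markers was 20.9% on LN/PC and 0.118% on silk. Leaving out a library gave 11.9% to 14.5% on LN/PC and 0.0119% to 0.0686% on silk.

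List medians that turned on rescaling were -0.25 for nephron transcription factors, -0.24 for injury genes, -0.24 for glycolysis, -0.30 for the unfolded protein response and -0.028 for YAP and TEAD targets. Those of the Wnt list (-0.13), the insulin-like growth factor axis (-0.14), inflammatory genes (-0.20) and EGF family genes (-0.36) turned too. So did sodium pump genes (-0.34), gluconeogenesis (-0.33) and fatty acid oxidation and peroxisomes (-0.43). At the subtracted shares the FGF, HGF and PDGF list turned to 0.21 and 0.24 and glycolysis to -0.029 at the summed share. Integrins turned to 0.06 and 0.21, the TGF-beta and BMP pathway to 0.45 and 0.54, and EGF family genes to -0.10 and -0.24. At the summed share alone TGF-beta targets turned to 0.11 and inhibitors of cyclin-dependent kinases and D cyclins to 0.04. Gluconeogenesis (-0.004) and sodium pump genes (-0.001) then lay just under the zero line. Without LN/PC replicate 3 the injury list turned to -0.034, where leaving out each library gave -0.034 to 0.262. Single genes that turned on rescaling were ABCB1 (-0.22), TGFB1 (-0.073) and VEGFA (-0.21). With fibroblast RNA subtracted at the median and the summed share they were VIM (0.080 and 0.33), OAS2 (0.37 and 2.92), GREM1 (7.11 and 7.02), LAMA2 (0.71 and 3.62) and AQP1 (2.69 and 2.25), and at the summed share ABCB1 (-0.11) and VEGFA (-0.070). At both shares the subtraction left no LN/PC counts of GREM1 and AQP1, nor of OAS2 and LAMA2 at the summed share. Those values only restate what was left on silk. For the remaining lists and genes the cause was not tested.

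Same-numbered co-cultures deviated together with correlations of 0.00341, 0.0444 and 0.0748, and differently numbered ones with -0.0780 to 0.0272. Values this small cannot decide whether replicate numbers pair the samples. With the replicate number as a block the fit called 4811 genes, 2467 higher and 2344 lower, and among the named genes only the call of ATP1B1 was lost (adjusted p = 0.0632). The filter on the monoculture libraries, chosen after seeing the data, gave 5231 calls. A difference of low genes is limited by depth, where 3 reads correspond to about 2 to 4 normalized counts.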

Other observations

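Several genes outside the lists stood in the silk co-cultures above every one of the 12 libraries of the other groups. Some are named here after their values were seen, from among the larger ratios to the next highest group. Among those left out, ENSG00000275993 (8.75-fold), FNIP2 (4.35-fold) and AVPI1 (4.29-fold) ranked above NPR1, SLC22A3 and UPP1. CCN3, a matricellular signalling protein, was at 1183, 1101 and 1370 in silk and 141, 168 and 160.2 in LN/PC co-cultures (log2 difference 2.95 ± 0.17 SE, adjusted p = 9.39e-09), against 193 to 266 in silk and 179 to 208 in LN/PC monocultures and 9.26 to 19.5 in fibroblasts. UPP1, uridine phosphorylase, was at 3887, 2897 and 3469 and 468, 548 and 509.9 (log2 difference 2.74 ± 0.23 SE, adjusted p = 3.04e-07), and CPA4, a carboxypeptidase, at 369.7, 296 and 509 and 26.8, 71.6 and 36.6 (log2 difference 3.18 ± 0.37 SE, adjusted p = 8.05e-06). SLC22A3, an organic cation transporter, was at 364, 401 and 531 and 44.8, 52.7 and 68.4 (log2 difference 2.95 ± 0.29 SE, adjusted p = 1.91e-06). SIK1, a salt-inducible kinase, was at 654, 447 and 454 and 68.5, 90.0 and 153, and NPR1, a receptor of natriuretic peptides, at 127, 145 and 194 and 12.4, 14.6 and 13.4. In monocultures UPP1 went the other way, at 434 to 475 on silk against 586 to 1309 on LN/PC without overlap (log2 difference -0.81), and fibroblasts held 245 to 316. Fibroblasts held at most 19.5 of CCN3, 5.48 of CPA4, 4.79 of SLC22A3, 14.5 of SIK1 and 1.88 of NPR1.

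The remaining gene lists had counts in both directions or few calls. Of 14 genes of the insulin-like growth factor axis 5 were higher and 5 lower on silk, and of 29 genes of fatty acid oxidation and peroxisomes 6 and 6. Targets of TGF-beta had 4 higher and 8 lower of 22, with 6 of the 22 fibroblast-enriched, and the TGF-beta and BMP pathway 5 and 7 of 22, with 7 fibroblast-enriched. Inflammatory genes had 5 higher and 3 lower of 25, and MHC class I presentation 1 and 4 of 17. Inhibitors of cyclin-dependent kinases and D cyclins had 1 higher and 5 lower of 13, and metallothioneins, which are near-identical copies and uncertain, had 3 of 5 lower. Genes of gluconeogenesis had 2 and 2 of 9, EGF family genes 3 and 2 of 11, sodium pump genes 2 and 2 of 6, keratins 2 higher of 6 and genes of other nephron segments 2 lower of 7.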
